A study of Mus musculus with 30 samples.

Results

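The late response of wild type mouse embryonic fibroblasts (MEFs) to osmostress was measured as the difference between 8 h and 2 h in 100 mM NaCl. It rests on 4 of the 30 arrays of the series, chosen by their titles: 2 arrays of MEFs after 2 h and 2 arrays of MEFs after 8 h, all without the p38 inhibitor SB203580. MEFs are fibroblasts grown from mouse embryos, here an immortalised line. The cells of both groups carried no gene deletion and grew exponentially in medium with 10% serum at 37°C and 5% CO2. By their labels they differed only in the time in NaCl. The series holds no untreated wild type array at either time. An effect of NaCl and one of the hours in culture therefore cannot be told apart. On each array the treated sample was labelled with Cy5 and hybridised against 1 Cy3 pool of cDNA from 2 untreated wild type cultures. That pool is common to all arrays and cancels in the difference between 8 h and 2 h. There were no dye-swapped arrays, so a dye effect of a probe cancels in the difference too but stays in each level against the pool. Of the remaining arrays, 4 of the same cells and times with SB203580 (10 μM, 30 min before NaCl) and 2 after 45 min in NaCl are used for comparison.

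Raised NaCl draws water out of cells, and cells answer in stages. Within minutes to hours the p38 and related stress kinases act on factors that switch on the immediate early genes, a class of transcription factors such as Fos, Jun and Egr1 whose mRNAs are made without new protein synthesis and are quickly destroyed. Later, cells replace the excess salt with harmless organic solutes (sorbitol, taurine, betaine, myo-inositol), a program in which the transcription factor Nfat5 is known to act on the genes of the enzymes and transporters involved. Fibroblasts under stress also release chemokines, small proteins that attract leukocytes.

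All values below are log2 ratios, so that 1 unit is a 2-fold change, and levels are ratios over the untreated pool. A gene was called when its adjusted p from limma, a linear model fitted across all genes with the replicate number as a block, was under 0.05. Array signal over background was high on the 4 arrays: between 92.4% and 96.8% of the spots were well above background in Cy5, and the median log2 ratio of every array lay between -0.0052 and 0.0003. The second 8 h array stood apart in 1 respect. Its scanning software marked 30.0% of the spots as outliers, against 9.04% to 13.8% on the other 3 arrays, and with the probes in 5 equal classes by signal, 52.3% of the brightest class were lost in this way on that array against 0.170% of the dimmest class. A gene was tested only on probes with unmarked spots on all 4 arrays, which left 15280 of 21689 genes, and 6409 genes, bright ones above all, were not tested. A probe well above background in Cy5 on all 4 arrays was found for 14 of 14 fibroblast markers, but also for 7 of 7 endothelial, 8 of 8 epithelial and 8 of 8 leukocyte markers and for 94.4% of all genes, so that presence on these arrays cannot check the cell type. None of the 10 fibroblast markers tested was called between the times, beside 5.22% of all genes called higher and 7.05% lower. Their median difference was -0.22, with 2 of the 10 above 0. With another normalization (normexp and loess) 2 of the 10 were called lower, and with the deposited series matrix 3 of 14. Of the 7 leukocyte markers tested 2 were called higher at 8 h, among them Itgam (difference 0.40), and 0 when any 1 array was left out. The part of other cells in the results was not tested.

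Between 2 h and 8 h of NaCl, 797 genes rose (5.22% of the genes tested) and 1077 genes fell (7.05%). Counts of called genes in the lists below are to be read beside these shares. The changes were of at least 2-fold for 244 genes that rose and 286 that fell. Of the genes that rose, 245 went from within 2-fold of the untreated pool at 2 h to at least 2-fold over it at 8 h, and 27 came back from at least 2-fold under the pool to within 2-fold of it. Only 9 were at least 2-fold over the pool at both times. Of the genes that fell, 76 dropped from at least 2-fold over the pool to within 2-fold of it, 7 stayed at least 2-fold over it at both times, and 170 went from within 2-fold of the pool to at least 2-fold under it. Most called genes, 515 that rose and 817 that fell, were within 2-fold of the pool at both times. The spread between replicates came from all 22 wild type arrays. With the 4 arrays alone, which leave 1 residual degree of freedom, only Cxcl5 was called higher in limma and 0 genes were called lower, while 1069 genes were lower at an unadjusted p under 0.05. Since these are bulk cultures, fewer cells of a kind and less RNA per cell cannot be told apart.

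**Figure D1:**
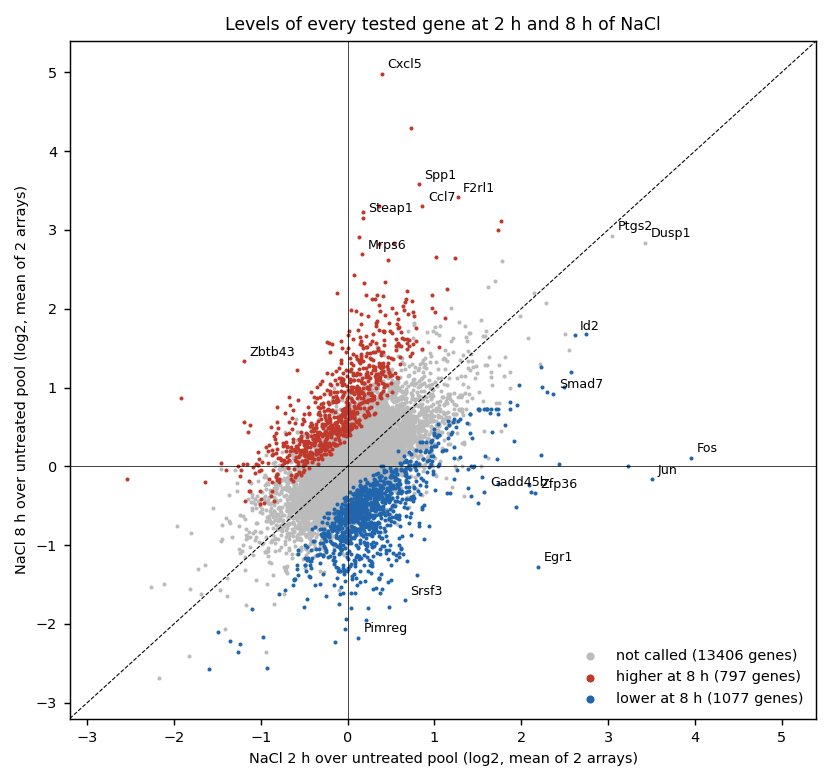
Mean log2 ratio over the untreated pool after 2 h (horizontal axis) and 8 h (vertical axis) of NaCl for the 15280 genes tested, 1 point per gene, mean of 2 arrays each; the dashed line marks equal levels. Genes called higher (797, red) lie mostly above a 2 h level near 0, while the genes called lower (1077, blue) include Fos, Jun, Egr1 and Zfp36 far to the right, high at 2 h and at or below the pool at 8 h; Ptgs2 and Dusp1 were high at both times and not called.

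Among genes well above background on all 4 arrays, the 12 largest rises were in genes of varied function, of which 11 are described. Steap1, a membrane protein of a metalloreductase family, was at 0.35 and -0.0025 on the arrays at 2 h and at 2.90 and 3.41 at 8 h, a difference of 2.98 ± 0.24 (SE, n = 2 per time; adjusted p = 2.92e-05 from limma). Spp1, the secreted phosphoprotein osteopontin, was at 0.84 and 0.81 at 2 h and at 3.16 and 3.99 at 8 h, a difference of 2.75 ± 0.26. Ampd3, an AMP deaminase, was at 0.63 and -0.27 and then at 2.71 and 3.75, the widest spread of the 3. With marked spots kept the Ampd3 difference was 1.54, against 3.04 on the probe tested. In all of these genes the lower 8 h array lay more than 1 log2 unit above the higher 2 h array, as it also did in the others described. F2rl1, the protease-activated receptor PAR2, rose from 1.44 and 1.09 at 2 h to 3.52 and 3.30, and was the member of the 11 already furthest over the pool at 2 h. The transcription factor Zbtb43 was under the pool at 2 h, at -0.82 and -1.56, and over it at 8 h, at 0.89 and 1.78. Its difference was 2.53 on the probe tested and 1.52 with marked spots kept. Foxf2, a forkhead transcription factor, Apbb2, an adaptor of the amyloid precursor protein, and St3gal6, a sialyltransferase, rose by 2.45, 2.32 and 2.14. The St3gal6 value is a mean over probes, and on the 1 probe also measured on the SB203580 arrays of both times the difference was 3.47. The chemokine Ccl7, Mrps6, a protein of the small subunit of the mitochondrial ribosome, and Inafm2 complete the 11, with differences of 2.44, 2.52 and 2.94.

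The largest falls were led by the immediate early genes. Fos, a component of the AP-1 transcription factor, was at 4.05 and 3.87 on the arrays at 2 h and at -0.66 and 0.88 at 8 h, a difference of -3.85 ± 0.43 (SE, n = 2 per time; adjusted p = 0.000212 from limma). Jun, its partner in AP-1, was at 3.84 and 3.17 and then at -0.46 and 0.13, a difference of -3.67 ± 0.31. Egr1, a zinc finger transcription factor, was at 2.07 and 2.32 and then at -1.35 and -1.20, a difference of -3.47 ± 0.29. In these genes the times did not overlap by a wide margin, and the level at 8 h was near the pool for Fos and Jun but under it for Egr1. Zfp36, which encodes tristetraprolin, a protein that promotes the decay of mRNAs with AU-rich elements, fell from 2.41 and 1.92 to -0.62 and -0.068. F3, the tissue factor that starts blood clotting, was at 3.15 and 1.72 at 2 h and at -0.24 and 0.30 at 8 h (adjusted p = 0.0348 from limma), with the 2 h arrays far apart. After 45 min in NaCl, Fos had been at 3.40 and 2.82 and Jun at 3.02 and 2.35, so that both were high at 45 min and 2 h and near the pool at 8 h.

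Of the 12 largest falls 6 others are described, which started at 1.07 or below and ended between -1.26 and -2.67. Pimreg, a regulator of mitosis, was at 0.20 and 0.054 at 2 h and at -2.67 and -1.68 at 8 h. Itgb3bp, a centromere protein, was at 1.07 and 0.54 and then at -1.29 and -1.48. Plekha6, a protein with a pleckstrin homology domain, Ppfibp2, a liprin, and Smim19 fell by 2.26, 2.04 and 2.02 on the log2 scale. Srsf3, a splicing factor of the SR family, fell from 0.96 and 0.35 to -1.91 and -1.48 on the probe that was tested. The second Srsf3 probe, with 1 spot marked as an outlier at 8 h, went the other way, from -0.64 and -0.63 to -0.024 and -0.39, so the probes of this gene disagree.

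**Figure D2:**
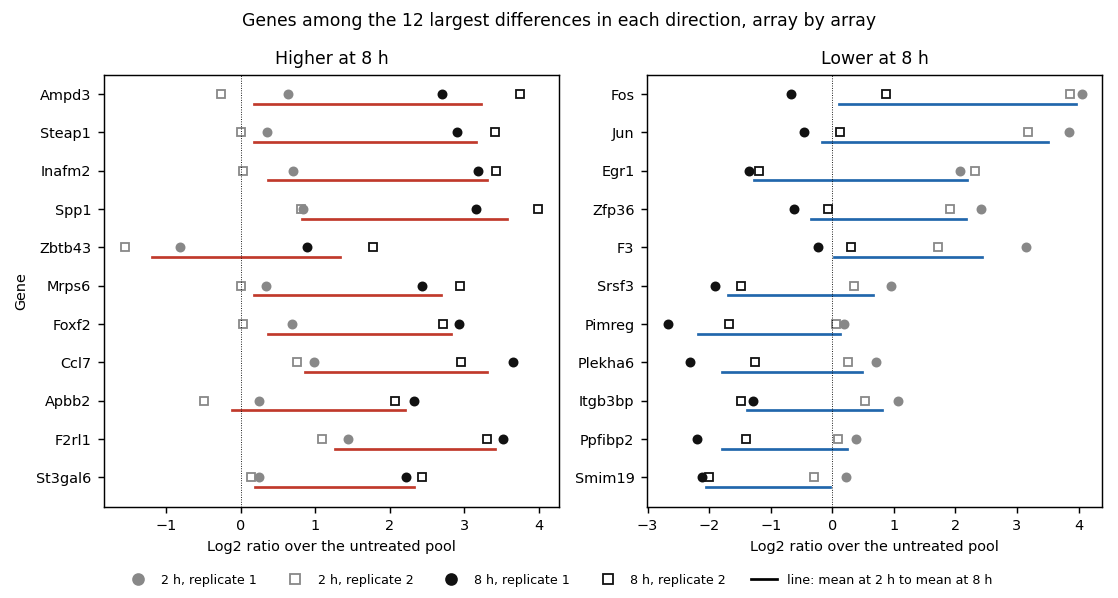
Log2 ratio over the untreated pool on each of the 4 arrays (grey, 2 h; black, 8 h; filled circles, replicate 1; open squares, replicate 2) for 11 of the 12 genes with the largest positive (left) and 11 of the 12 with the largest negative (right) differences; coloured lines join the mean at 2 h to the mean at 8 h. In none of the 22 genes do the arrays of the 2 times overlap, and the right panel shows Fos, Jun, Egr1, Zfp36 and F3 high at 2 h above genes that ended between -1.26 and -2.67 (from Srsf3 down).

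The list of immediate early transcription factors held the 3 largest falls, but its members did not all move. Of 28 listed factors 21 were tested, 9 fell and 1 rose, against 7.05% and 5.22% of all genes, with a median difference of -0.40 beside -0.016 over all genes. Besides Fos, Jun and Egr1 these were Junb (-1.62), Klf6 (-1.49), Mycn (-1.28), Klf10 (-1.09), Csrnp1 (-0.96) and Myc (-0.94). Mycn, the N-Myc proto-oncogene, was at 1.95 and 1.67 at 2 h and at 0.52 and 0.53 at 8 h, still over the pool. Klf2, a Krüppel-like factor, was the 1 that rose, from -0.63 and -1.04 to 0.21 and 0.49. Atf3 and Bhlhe40 were among 7 factors with no probe free of outlier marks, and with marked spots kept their differences were -1.34 and -2.18. Without the first 2 h array or without the first 8 h array 6 factors were called lower, and without the second 8 h array Klf2 was not called (difference 0.39).

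In the list of TGF-β feedback and Id factors, 4 of 13 genes tested fell and 0 rose, with a median of -0.067, and 2 fell without the first 8 h array. Smad7, an inhibitor of TGF-β signalling, was at 2.42 and 2.32 at 2 h and at 0.81 and 1.02 at 8 h (adjusted p = 0.000735 from limma). Id2, a dominant negative helix-loop-helix protein, was at 2.73 and 2.50 and then at 1.59 and 1.73, still well over the pool. Tgif1, a transcriptional co-repressor, went from 2.16 and 1.31 to -0.34 and -0.10. Of 11 mRNA decay factors tested 2 fell and 0 rose: Zfp36 and its relative Zfp36l1, which went from 2.28 and 2.31 to 0.67 and 1.21. The Socs and Jak-Stat feedback list split, with 2 of 10 genes tested higher and 2 lower (median 0.025). Beside each list here, the shares over all genes were 5.22% higher and 7.05% lower. Socs3, a suppressor of cytokine signalling, fell by 0.93, whereas its relative Socs4 rose by 1.16 and the cytokine receptor Lifr by 0.65. The Ier, Phlda and Btg early response genes also split, with 2 of 7 higher and 2 lower. Of these Ier5 was at 2.97 and 2.53 and then at 1.36 and 1.99, a fall that was not called without the first 2 h array (-0.87) or the first 8 h array (-0.69).

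The dual specificity phosphatases, which switch MAP kinases off, behaved less uniformly. Among 7 tested, Dusp10 fell (from 2.42 and 1.33 to 0.69 and 0.93; adjusted p = 0.0455 from limma) and Dusp14 rose by 0.55. The Dusp10 call was lost without the first 2 h array or either 8 h array (differences -0.60 to -1.34), and that of Dusp14 without the second 2 h array (0.43) or the first 8 h array (0.45). Dusp1, the most strongly raised of those tested, was at 3.51 and 3.34 at 2 h and still at 2.79 and 2.89 at 8 h, a difference of -0.59 that did not pass the test (adjusted p = 0.0788). Dusp4 had a difference of -0.24 (adjusted p = 0.587). Ptgs2, the inducible cyclooxygenase, was likewise high at both times, at 3.81 and 2.28 at 2 h and at 3.29 and 2.56 at 8 h, with overlapping arrays and a difference of -0.12 (adjusted p = 0.888).

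For the genes of osmolyte accumulation the outlier marks decided which probes were tested. Of 16 listed genes 10 were tested, 2 rose and 1 fell, and with marked spots kept all 16 were tested and 5 rose. Over all genes 5.22% rose and 7.05% fell, and with marked spots kept 1326 of 21689 rose. Without the replicate block, and with the 10 wild type arrays without SB203580, 1 of the 10 rose. The median difference of the list was 0.037, and with 1 array left out it lay between 0.0070 and 0.26, over changing sets of genes. Akr1b3, aldose reductase, which makes sorbitol, has 3 probes. On the only one without outlier marks, a probe made to a cDNA clone, Akr1b3 was at -1.58 and -0.44 at 2 h and at -0.23 and -0.70 at 8 h, with a difference of 0.55 that was not called (adjusted p = 0.354 from limma), and the first 2 h spot was not well above background. On the 2 probes made to its RefSeq mRNA it was at 1.08 and 0.94 and at -0.68 and -0.088 at 2 h, and at 4.52 and 5.37 and at 2.61 and 3.91 at 8 h, with 1 or 2 of the 4 spots marked, always including the second 8 h array. On the first arrays of both times no spot of these probes was marked, and there too the 8 h values were far above those at 2 h. The study also followed Akr1b3 by RT-PCR over its NaCl time course and reported more of its mRNA after 8 h. The taurine transporter Slc6a6, with 2 probes and 1 marked spot on each, was not tested. With marked spots kept its probes differed by 1.11 and 1.32 between the times, and the arrays of the times did not overlap on either probe.

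Slc5a3, the myo-inositol transporter, had 1 probe, at -0.10 and 0.29 at 2 h and at 0.21 and 0.049 at 8 h (difference 0.036, adjusted p = 0.937 from limma). Mrps6, among the 12 largest rises, was at 0.34 and -0.0038 at 2 h and at 2.44 and 2.95 at 8 h. These genes overlap: in RefSeq the windows around their starts (GRCm38.p6) lie on the same strand and are offset by 14 bases, with 286 bases shared, so a probe named for 1 of them may measure transcripts of the other. The window is shown because both genes would share it, and no motif searched here was found in it:
Slc5a3, chr16:92058072-92058371, plus strand: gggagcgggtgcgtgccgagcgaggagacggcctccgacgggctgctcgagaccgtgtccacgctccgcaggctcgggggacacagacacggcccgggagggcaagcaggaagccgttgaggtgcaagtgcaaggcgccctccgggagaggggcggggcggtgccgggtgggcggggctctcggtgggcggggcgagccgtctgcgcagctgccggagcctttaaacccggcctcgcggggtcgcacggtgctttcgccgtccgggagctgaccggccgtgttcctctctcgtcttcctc

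Nfat5 itself rose by 0.56 (adjusted p = 0.0255 from limma) over 2 probes tested. The probe that was over the pool at both times was at 1.09 and 0.76 at 2 h and at 1.36 and 1.55 at 8 h. The second was at -0.42 and -0.32 and then at 0.84 and -0.39, which overlap, so the call rests on probes that differ, and it was lost when any 1 array was left out (differences 0.36 to 0.59). Slc38a2, a transporter of neutral amino acids, rose by 1.49 on 1 tested probe, but its 4 probes ranged from -0.66 to 1.49 with marked spots kept, and under that setting the gene was not called (difference 0.32, adjusted p = 0.159). Gpcpd1, which splits the osmolyte glycerophosphocholine, fell from 0.26 and 0.21 to -1.28 and -0.86 on the mean of 3 probes that disagree. Their differences were -1.91, -1.74 and -0.27, and that of another probe, with marked spots, was 0.0024. Sgk1, a kinase that stimulates ion transport, was not tested because of 1 marked spot, and was at 2.67 and 1.81 at 2 h and at 3.95 and 3.48 at 8 h with it kept. The amino acid transporters Slc1a3 and Slc38a4 rose by 1.66 and 1.30. In that list 3 of 16 genes tested rose, against 5.22% of all genes. Atp1b3, a subunit of the sodium pump, rose by 0.70.

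**Figure D3:**
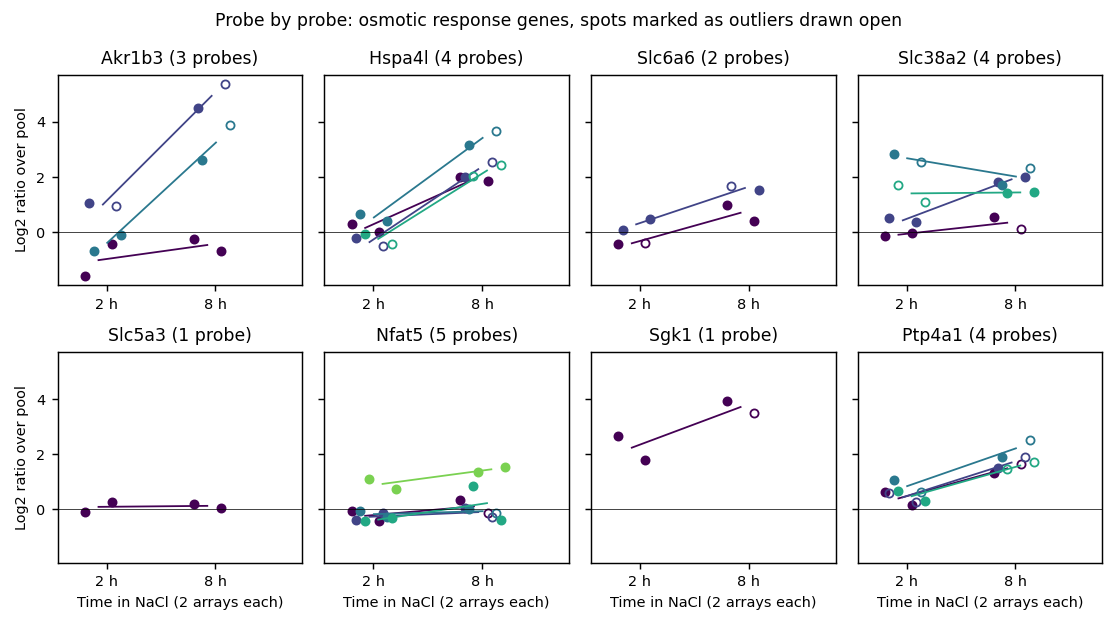
Log2 ratio over the untreated pool (vertical axis) of every probe of 8 genes at 2 h and 8 h of NaCl; within a time the left point is replicate 1 and the right one replicate 2, colours mark probes, lines join the means of a probe, and open circles are spots marked as outliers. The open circles include the highest Akr1b3, Hspa4l and Ptp4a1 values, while the Slc5a3 probe stays near 0 with no mark.

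Among chaperones, members of the Hsp110 branch rose. Of 24 heat shock proteins and chaperones tested, 5 rose and 1 fell, against 5.22% and 7.05% of all genes, with a median difference of 0.13 that ranged from 0.072 to 0.33 when the second or the first 2 h array was left out. Hspa4l, an Hsp110 relative also known as Osp94 for its induction by osmotic stress, was at 0.30 and 0.011 at 2 h and at 2.00 and 1.85 at 8 h on the probe tested (difference 1.77 ± 0.14, adjusted p = 0.000421 from limma). Its 3 other probes, all with marked spots, had differences of 2.65, 2.89 and 2.48. Hspa4 and Hsph1, of the same branch, rose by 1.20 and 1.12, Dnaja2, a co-chaperone, by 0.95 and the small heat shock protein Cryab by 0.91. The call of Hspa4 was lost under 6 alternative settings and that of Dnaja2 under 4, against 1 each for Hspa4l, Hsph1 and Cryab. Hspa1a, an inducible Hsp70, had a difference of 0.049 and was not called. Its tested probes were over the pool at both times, at 2.9 and 2.1 and at 2.2 and 1.3 at 2 h. At 8 h they were at 2.6 and 2.5 and at 2.0 and 1.7. Its other probes, with marked spots, lay between -0.63 and 0.30. The small heat shock protein Hspb8 fell by 1.15. Without the second 2 h array, and without the second 8 h array, 3 genes of this list were called higher.

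Of 19 chemokines tested 5 rose and 1 fell (median 0.068), and without the second 2 h array 3 rose. Cxcl5, a neutrophil-attracting chemokine, was at 0 and 0.79 at 2 h, where its probe was not well above background in Cy5 on either array, and at 4.82 and 5.14 at 8 h. From the Cy5 channel alone it was at least 14.6-fold higher at 8 h (adjusted p = 3.02e-05 from limma), a bound open to dye bias since no dyes were swapped. Ccl7, which attracts monocytes, was at 0.98 and 0.75 and then at 3.66 and 2.95 on the tested probe, whereas its second probe, with 1 marked spot, was at -0.45 and -0.24 and then at 0.47 and 0.50. Ccl20 rose from 1.60 and 0.88 to 2.41 and 2.87, and Cxcl3 from 0.64 and 0.20 to 1.76 and 1.64. Cxcl10, an interferon-inducible chemokine, fell from 1.95 and 0.87 to 0.72 and 0.61 (adjusted p = 0.0468), with 1 of the 2 h arrays close to the 8 h level, and was not called without the first 2 h array (-0.50) or the first 8 h array (-0.45). Over all genes 5.22% rose and 7.05% fell, against 26.3% and 5.26% of the chemokines. Among 33 cytokines and growth factors 6 rose and 2 fell (18.2% and 6.06%). Next to Spp1 these included Tgfb2 (1.04), the activin subunit Inhba (0.92) and Pdgfb, a chain of platelet-derived growth factor (0.89), among the risers and the alarmin Il33 (-1.17) among the fallers. Without the second 2 h array 2 were called higher, and without the second 8 h array 3, and 0 were called lower without the first 2 h array or the first 8 h array.

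Genes for making ribosomes rose in large number. In the list of ribosome biogenesis and RNA polymerase I genes, 21 of 39 tested rose and 1 fell, against 5.22% and 7.05% of all genes, and the median difference was 0.49. Grwd1, a chaperone of a ribosomal protein, was at 0.032 and -0.22 at 2 h and at 1.26 and 1.22 at 8 h (adjusted p = 0.000372 from limma). Rrs1, needed for maturation of the large subunit, was at 0.44 and -0.16 and then at 1.47 and 1.24, and Nop2, a nucleolar RNA methyltransferase, at 0.80 and 0.60 and then at 2.02 and 1.85. Utp18, of the small subunit processome, rose by 1.45. The rises were moderate, from 0.46 for Ddx10 to that of Utp18. Pes1, which acts in the maturation of the large subunit, was called lower (-0.82), but on its brightest probe alone the difference was 0.084 and was not called. With outlier spots kept 32 of 60 rose. Leaving out 1 array at a time gave 12 to 18 rises, the lowest without the second 2 h array. Of 47 ribosomal proteins tested 1 rose and 2 fell, and 5 of the 47 differences were above 0. Their median difference of -0.31 depended on the array: it was -0.53 in the first pair and -0.075 in the second, and -0.095 without the first 8 h array.

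Some genes of cell division were lower at 8 h. Of 31 mitotic genes tested 8 fell and 2 rose, against 7.05% and 5.22% of all genes, with a median difference of -0.31 that was -0.15 without the first 8 h array. Ccna2, cyclin A, was at 0.57 and 0.66 at 2 h and at -0.50 and -0.15 at 8 h. Ccnb2, a B-type cyclin, was at 0.54 and 0.37 and then at -0.42 and -0.42. Bora, an activator of Aurora A, fell by 1.66 and Cdca3, a trigger of mitotic entry, by 0.89. Plk4, the kinase of centriole duplication, and the phosphatase gene Cdc25c went the other way, rising by 0.96 and 0.83. The ribonucleotide reductase subunit Rrm2 fell from 0.67 and 0.22 to -0.91 and -0.86, while cyclin D1 (Ccnd1) rose by 1.04. Without the first 2 h array or the first 8 h array 5 mitotic genes were called lower, and without the second 8 h array neither Plk4 (0.79) nor Cdc25c (0.15) was called.

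Of 18 sterol synthesis and uptake genes tested 6 fell, against 7.05% of all genes. Their median was -0.38, with -0.72 in the first pair of arrays and -0.072 in the second. Sqle, squalene epoxidase, was at 1.64 and 0.72 at 2 h and at -0.26 and -0.42 at 8 h (adjusted p = 0.00304 from limma). Nsdhl, Hsd17b7 and Idi1, enzymes of the same pathway, fell by 1.13, 1.02 and 0.93 on the log2 scale. In each of the 4 the first 2 h array was higher than the second. This count turned on single arrays: it was 2 without the first 2 h array, 2 without the first 8 h array, 9 without the second 2 h array and 3 without the replicate block.

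Smaller groups moved in both directions, and their counts stand beside 5.22% higher and 7.05% lower over all genes. Of 13 genes of the integrated stress response, in which Atf4 drives amino acid supply, 4 rose and 1 fell. Chac1, which degrades glutathione, was at 0.41 and -0.55 at 2 h and at 1.69 and 1.48 at 8 h, and Cebpg, a bZIP factor, rose by 0.97. Mthfd2 and Trib3 rose by 0.65 and 0.43, and 1 gene of the list was called higher with no replicate block and 2 when any 1 array was left out. The Clk kinases that phosphorylate SR proteins, Clk1 and Clk4, fell by 0.86 and 0.85. The Clk4 value is a mean of probes that differ by -0.19 and -1.51, and its other probes, with marked spots, differ by -0.33 and -0.35. The calls of Clk1 and Clk4 were lost under 4 and 5 alternative settings. Of 19 p53 targets tested 3 rose and 4 fell, and 2 fell without the first 2 h array or the first 8 h array. Among them Gadd45b, a stress-induced protein that binds MAP kinase kinases, went from 1.72 and 1.43 to -0.33 and -0.32. Plk3, a stress-responsive kinase, and Pmaip1, the pro-apoptotic protein Noxa, changed by -1.40 and -1.39 on the log2 scale, and neither was called without the first 2 h array or the first 8 h array. Among 17 collagen and matrix genes 1 rose and 1 fell, and of 11 p38 pathway genes Mapk14, the p38α gene itself, rose by 0.85 (from 0.47 and 0.052 to 0.92 and 1.31; adjusted p = 0.0330 from limma) and 2 fell. Mapk14 was not called without the first 2 h array (1.03), the second 2 h array (0.67) or the second 8 h array (0.52), nor with the 10 wild type arrays without SB203580.

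**Figure D4:**
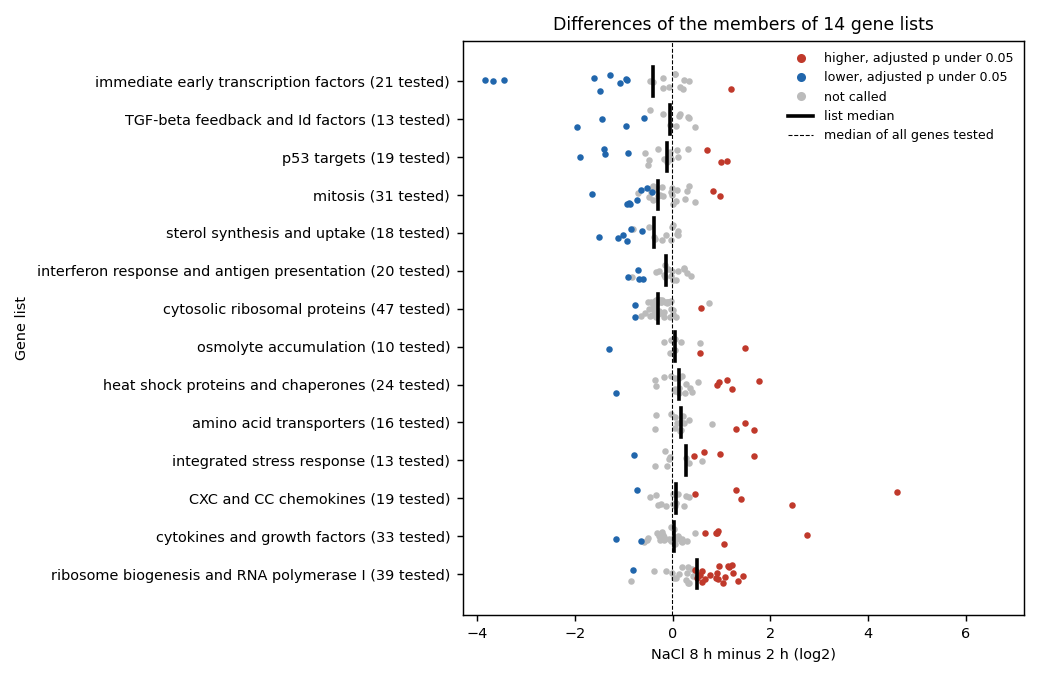
Difference between 8 h and 2 h of NaCl (log2, horizontal axis) for the tested members of 14 gene lists, 1 point per gene; red and blue points passed the test (higher and lower), black bars are list medians and the dashed line is the median of all genes tested (-0.016). The ribosome biogenesis genes lie mostly to the right (median 0.49), the immediate early factors form a tail reaching -3.85, and the ribosomal proteins cluster just left of 0 (median -0.31).

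The study discussed this time course by kinases and phosphatases, but also by transcription factors, chemokines and other genes. The list of 30 such genes partly repeats genes given above, with Fos, Mycn, Zfp36, Cxcl5, Ccl7, Spp1 and Hspa4l among them. It was chosen by the study on these samples and is no independent evidence of direction. Of its 27 tested genes 16 rose and 4 fell, and 10 rose without the second 2 h array. Egfr, the epidermal growth factor receptor, was at -0.14 and -0.017 at 2 h and at 1.18 and 1.45 at 8 h (adjusted p = 0.000252 from limma). This is a mean of 4 probes with differences of 0.30, 1.55, 1.66 and 2.06, the last above background on 3 of the 4 arrays. Another Egfr probe, with marked spots, differed by -0.0020. Ptprb, a receptor-type phosphatase, rose by 1.22 over the mean of 3 probes that disagree. On the 1 probe well above background on all 4 arrays Ptprb was at 0.18 and -0.045 and then at 2.90 and 3.08 (difference 2.92), and on the others, above background on 2 and 1 of the 4 arrays, the differences were -0.018 and 0.75. The phosphatase Ptp4a2 was at 0.17 and 0.020 and then at 1.96 and 1.98. Protein kinase C alpha (Prkca), Styk1 and the Src family kinase Lyn rose by 1.29, 1.31 and 1.08. Stk4, a kinase of the Hippo pathway, rose by 0.69 and Ppm1d, a phosphatase induced by p53, by 0.70 (adjusted p = 0.0495 from limma). The receptor Epha2 was high at both times, at 2.44 and 1.71 at 2 h and at 1.46 and 1.80 at 8 h, and was not called. Nor were the receptor Kdr (-0.20, adjusted p = 0.677) and the phosphatase Ptprd (0.34, adjusted p = 0.446 from limma), whose pairs of arrays went opposite ways. The study wrote VEGFr without naming a gene, and Kdr was chosen for it here. Its raised genes were counted at 8 h over the untreated pool, which is not the difference from 2 h.

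Most genes called between 2 h and 8 h moved in the same direction with SB203580, which does not show that the size of the change was kept. By another measure, reduced expression with SB203580 at 8 h, the study counted most genes raised at 8 h as p38 dependent. The SB203580 arrays share no Cy5 sample with the arrays above, and 13862 genes were measured on all 8 arrays. Of 741 genes that rose without the inhibitor and were measured there, 706 were also higher at 8 h with it, 674 of them in both pairs, and of 1012 genes that fell, 971 were also lower, 931 of them in both pairs. Over all genes the direction was shared by 70.1%, and by both pairs in 53.9%. Across the 13862 genes Pearson's r between the differences was 0.68, a description over genes that share probes, scanning batches and the pool. Median differences of the called genes were 0.80 without and 0.64 with SB203580 for those that rose, and -0.80 and -0.64 for those that fell. Since the genes were chosen on the arrays without the inhibitor, a smaller value on the others is no finding.

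Fos was at 3.10 and 3.68 at 2 h and at -0.71 and 0.64 at 8 h with SB203580, close to its fall without it. Jun was at 3.82 and 3.99 and then at 1.46 and 2.18 with SB203580, and the difference from its fall without the inhibitor (1.59) did not pass the test (adjusted p = 0.440 from limma). Spp1 (2.75 without and 1.52 with SB203580), Ccl7 (2.44 and 0.81) and Foxf2 (2.45 and 1.08) had smaller differences with it, but none of these passed the interaction test in limma (adjusted p between 0.106 and 0.518). For the ribosome biogenesis genes measured on all 8 arrays the median difference was 0.53 without and 0.20 with SB203580.

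Only 6 of the 13862 genes (0.0433%) had a difference between 8 h and 2 h that itself differed with SB203580. Cxcl5 was at 0 on both 2 h arrays and at 0 and 1.79 at 8 h with the inhibitor, against 4.82 and 5.14 at 8 h without it (adjusted p of the interaction 0.0486 from limma). With its probe not well above background at 2 h without the inhibitor, and values of exactly 0 on 3 of the 4 arrays with the inhibitor, the size of this difference was not measured. Tuba1a, an alpha tubulin, was at 0.40 and 0.45 at 2 h and at 0.34 and 0.58 at 8 h with SB203580, but fell from 0.70 and 0.41 to -1.22 and -1.15 without it. Fli1, an ETS transcription factor, was at 0.54 and 0.60 and then at 0.33 and 0.48 with the inhibitor and rose from 0.32 and 0.12 to 1.00 and 1.30 without it. Ranbp6, an importin relative, was at -1.06 and -1.27 at 2 h and at 0.78 and 0.64 at 8 h with SB203580, a larger rise than without it (1.88 and 0.42). Alox12b, a lipoxygenase, had a smaller difference with the inhibitor (0.70 against 2.26 on the 1 probe measured on all 8 arrays). Fhl4, a LIM domain protein, was at -0.084 and -0.064 and then at -0.47 and -0.47 with SB203580, and at 0.81 and 1.07 and then at -0.57 and -0.95 without it. Fhl4 was not well above background at 8 h without the inhibitor, and from Cy5 alone it was at least 1.04-fold lower there than at 2 h.

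**Figure D5:**
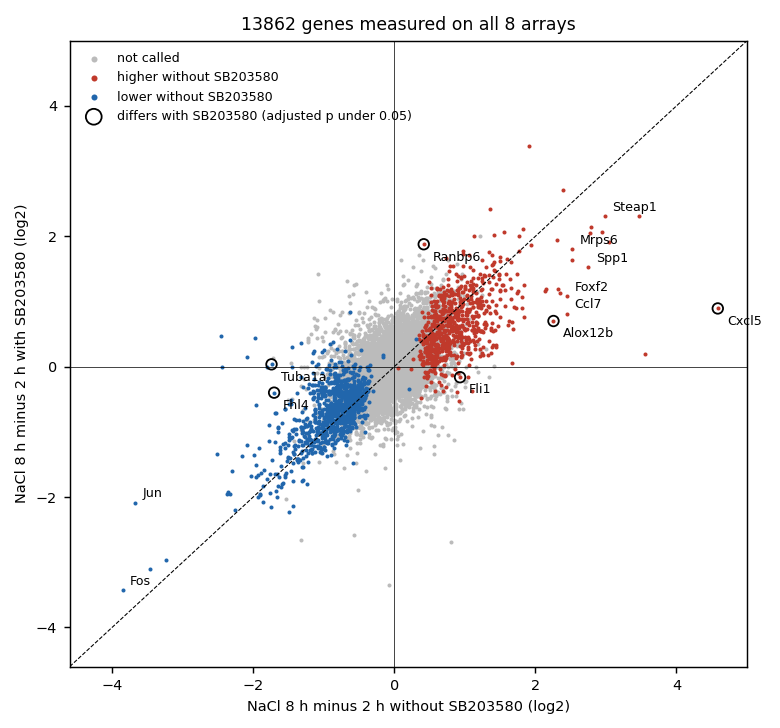
Difference between 8 h and 2 h of NaCl (log2) without (horizontal) and with SB203580 (vertical) for the 13862 genes measured on all 8 arrays; red and blue genes were called higher and lower without the inhibitor, the dashed line marks equal differences and black circles mark the 6 genes whose differences differed. Most red and blue points lie in the quadrants of equal sign (706 of 741 and 971 of 1012), and Cxcl5 lies far below the dashed line.

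Promoter letters of the genes that moved together were compared with those of all genes. RefSeq windows of 250 bases before to 50 bases after the start (GRCm38.p6) were held for 588 genes that rose and 812 that fell, and were searched on both strands for motifs of which none contains another, though matches may overlap. The AP-1 site TGACTCA was found for 4.59% of the genes that rose, 4.06% of those that fell and 5.36% of the genes tested. For the cAMP response element TGACGTCA these shares were 3.06%, 3.45% and 2.84%, for TGGAAA, the core of Nfat5 and NFAT sites, 20.2%, 21.4% and 22.3%, for the facing heat shock units GAANNTTC 7.82%, 7.02% and 7.95%, and for the E-box CACGTG 11.6%, 11.9% and 9.96%. Over the windows of all 27025 genes held, 5.95%, 2.03%, 23.9%, 9.04% and 8.09% had these motifs in the same order. A match is only a match of letters, and the difference between these shares was not tested.

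The windows of 3 early genes and of 2 late ones are shown because they hold such matches, in capitals, and belong to genes whose values are given above. Jun has GAANNTTC at -128 from the start. Gadd45b has CACGTG at -185 and TGGAAA, as its complement and as written, at -152 and -92. Dusp1, still high at 8 h, has TGACGTCA at -143 and CACGTG at -126. Steap1 has the complement of TGGAAA at -194, and the first of the St3gal6 windows has it at -232 and -72 and TGGAAA at -57.
Jun, chr4:95052173-95052472, minus strand: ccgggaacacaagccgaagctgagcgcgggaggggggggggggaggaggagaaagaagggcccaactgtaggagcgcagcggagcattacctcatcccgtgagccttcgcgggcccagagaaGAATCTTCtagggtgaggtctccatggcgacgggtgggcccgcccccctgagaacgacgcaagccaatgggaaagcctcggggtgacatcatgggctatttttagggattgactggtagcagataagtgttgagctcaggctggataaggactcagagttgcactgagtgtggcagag
Gadd45b, chr10:80929841-80930140, plus strand: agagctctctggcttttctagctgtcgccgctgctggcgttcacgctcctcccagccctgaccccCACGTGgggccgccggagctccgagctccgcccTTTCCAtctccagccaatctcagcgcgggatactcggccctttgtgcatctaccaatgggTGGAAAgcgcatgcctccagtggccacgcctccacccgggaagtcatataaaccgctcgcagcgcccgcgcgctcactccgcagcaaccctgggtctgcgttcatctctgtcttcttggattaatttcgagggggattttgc
Dusp1, chr17:26508423-26508722, minus strand: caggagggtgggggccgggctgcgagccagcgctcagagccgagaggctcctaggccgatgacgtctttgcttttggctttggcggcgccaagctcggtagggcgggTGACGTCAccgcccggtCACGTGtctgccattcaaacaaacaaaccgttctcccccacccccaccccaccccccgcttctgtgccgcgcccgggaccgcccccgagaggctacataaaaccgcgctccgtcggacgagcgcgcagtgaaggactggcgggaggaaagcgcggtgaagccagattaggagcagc
Steap1, chr5:5749268-5749567, minus strand: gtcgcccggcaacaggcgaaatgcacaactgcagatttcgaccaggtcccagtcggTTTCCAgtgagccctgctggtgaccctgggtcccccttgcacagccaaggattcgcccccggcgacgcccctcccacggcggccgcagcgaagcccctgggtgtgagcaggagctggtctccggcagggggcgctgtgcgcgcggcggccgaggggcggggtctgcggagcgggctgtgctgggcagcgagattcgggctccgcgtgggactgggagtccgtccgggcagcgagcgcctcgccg
St3gal6, chr16:58524204-58524503, minus strand: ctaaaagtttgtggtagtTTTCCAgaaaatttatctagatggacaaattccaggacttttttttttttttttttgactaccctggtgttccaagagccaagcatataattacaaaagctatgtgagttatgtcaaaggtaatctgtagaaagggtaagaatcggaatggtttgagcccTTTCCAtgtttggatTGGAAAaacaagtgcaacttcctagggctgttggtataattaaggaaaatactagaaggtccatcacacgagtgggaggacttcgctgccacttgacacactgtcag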

How the data were processed

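Total RNA of MEFs was measured on 2-colour Agilent 44K mouse arrays, with 2 arrays per group from independent experiments, per the study's methods. The authors quantified the scans in Agilent Feature Extraction (9.1 in the submitters' processing notes, 8.1.1.1 per the file headers), which marks outlier spots, normalizes the dyes and gives the deposited intensity columns. The deposited log10 ratios are processed Cy5 over Cy3. A deposited series matrix holds 1 value per probe on a log2 scale, judged from its values; how it was made is not given in the sources used here.

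Ratios were converted to log2. Control spots and marked outlier spots were dropped, spots of a probe were averaged, and a gene was the mean of its probes measured on all 4 arrays. Of 41174 probes 33453 carried one of 21689 gene names, and 19949 names matched RefSeq, whose symbols are shown. The 11 wild type groups (22 arrays) were fitted in limma 3.58.1 (R 4.3.3), blocking on replicate number, with Benjamini-Hochberg adjustment across all tested genes. Tables and figures were made in Python 3.11.15 with numpy 2.4.6, pandas 2.3.3 and matplotlib 3.10.9. The fits were tested on simulated data. The number of arrays limits the precision.

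To see whether replicate numbers pair the arrays, replicate 1 minus replicate 2 was correlated across genes for each pair of wild type groups. The correlation exceeded 0.1 for all 55 pairs (0.13 to 0.65), and was 0.13 for NaCl 2 h with 8 h. Every first wild type array was scanned at one time and every second at another, so each pair also lies within a scan batch.

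Named genes were the 12 largest differences in each direction among called genes of at least 2-fold, moved the same way in both pairs, above background on all 4 arrays and with a gene symbol; the genes by which the study discussed the time course; at most 4 called members per list and direction, with members needed to show a list that did not pass; and genes called in the interaction. Csrnp1, Ddx10, Hspa1a, Klf6, Klf10, Myc, Slc5a3 and the untested Atf3, Bhlhe40 and Slc6a6 are outside this rule and were named after their values were seen. Some genes are not reported here. Members and lists were chosen with earlier results of these data known. Alternatives were no block, other sets of arrays, loess after normexp (offset 50), the series matrix, median-centred arrays, other probe rules, outlier spots kept, each array left out, and stricter thresholds. Sample titles and the treatment protocol give different SB203580 doses, and the protocol's is used. Lower bounds came from processed Cy5 signals after Aquantile scaling. The p38α-/- arrays entered only the fit of all 30 arrays.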

Additional observations from a re-analysis of the deposited data

Results flagged for a closer look

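In 6 genes the change between 2 h and 8 h of NaCl differed with SB203580 by the interaction test in limma. The change with SB203580 minus that without it was 1.78 for Tuba1a, -1.56 for Alox12b, 1.46 for Ranbp6 and -1.09 for Fli1 on the log2 scale. Adjusted p was 0.0147 for Ranbp6 and 0.0486 for the other 5. Cxcl5 at 2 h and Fhl4 at 8 h were not well above background on the arrays without the inhibitor, so their fitted values of -3.69 and 1.30 rest on signals near the floor and are not measured sizes. With 845 of 13862 genes at an unadjusted p under 0.05, most genes gave no call either way.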

How the results depend on the processing

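The counts of 797 genes higher and 1077 lower moved with the arrays and spots used. With the 4 arrays alone they were 1 and 0 (762 and 1069 at an unadjusted p under 0.05), with the 10 wild type arrays without SB203580 297 and 376, with the series matrix 1639 and 1918, with outlier spots kept 1326 higher, at an adjusted p under 0.01 360 and 426, and with a 2-fold minimum 244 and 286. Without the replicate block they were 606 and 814, all among the calls with the block. Leaving out 1 array, where the lone array left is assumed to vary like the others, gave 417 to 655 higher (417 without the second 2 h array, 429 without the second 8 h array) and 430 to 1073 lower (430 without the first 2 h array, 450 without the first 8 h array). The 6 genes that differed with SB203580 became 0 without the replicate block (515 at an unadjusted p under 0.05), 0 with the 8 arrays alone (677), 0 at an adjusted p under 0.01, 3 with all 30 arrays, 10 with normexp and loess (2 of the 6 among them), 1 with every measured probe, 1 with the brightest probe, 3 with probes above background, and 2 to 20 when 1 array was left out.

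Of 101 called genes named, 50 kept their call and direction under every alternative other than the 4 arrays alone. Direction reversed for Pes1 on its brightest probe (0.084) and, among genes not called, when 1 array was left out: Dusp4 ranged from -0.49 to 0.020, Ptgs2 from -0.57 to 0.33, Slc5a3 from -0.22 to 0.29 (-0.013 without the first 2 h array), Hspa1a from -0.33 to 0.43, Kdr from -0.47 to 0.081 and Ptprd from -0.028 to 0.75. The cause was not tested. Trib3 lost its call under 10 alternatives, Myc under 9, Cxcl10, Ppm1d and Ranbp6 under 8, and Cdc25c, Mthfd2 and Nfat5 under 7. With 2 arrays per time and bright spots lost to outlier marks, a gene that was not called is not shown to be unchanged.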
